A study of Mus musculus with 6 samples.

Results

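The 10 genes described here encode the machinery by which cells show peptides from engulfed protein to CD4 T cells on MHC class II molecules. They were taken by symbol as the class II presentation genes of the mouse: H2-Aa, H2-Ab1, H2-Eb1, Cd74, H2-DMa, H2-DMb1, H2-DMb2, H2-Oa, H2-Ob and Ciita. Each had 1 row among the 36557 rows of the deposited tables, and all 10 passed the filter on low counts, as did 17392 rows in all. RNA had been sequenced from aortic arch and thoracic aorta of mice fed a high-fat diet for 4 weeks. The 3 control libraries came from Apoe-/- mice, and the 3 knockout libraries from Apoe-/- mice that were also MiR26b-/-. Every library therefore lacks apolipoprotein E, whose loss lets cholesterol-rich lipoprotein build up in blood and plaque form in arteries. The labels give no age, sex, strain or number of animals per library, and do not tell how or in which cells the microRNA gene was removed. The p-values thus measure the spread between these libraries, which may be partly technical.

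A class II molecule is a pair of an alpha and a beta chain that is assembled in the endoplasmic reticulum on the invariant chain, the product of Cd74. In endosomes the invariant chain is cut down by proteases, the exchange factor H2-M removes its last fragment and edits the bound peptide, and H2-O holds H2-M back. Macrophages, dendritic cells and B cells use this route, and the coactivator CIITA switches on nearly all of its genes together by docking on proteins bound to the X and Y boxes of their promoters. In plaque-bearing aorta, macrophages and dendritic cells carry most of the class II molecules, while H2-O is known mainly from B cells and some dendritic cells.

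Of the 10 genes, 6 were higher in the knockout aorta and 0 were lower: the chains H2-Aa, H2-Ab1 and H2-Eb1, the invariant chain Cd74, and the editor chains H2-DMa and H2-DMb1. Their mean levels were 2.45-fold to 3.77-fold those of the controls. In bulk tissue, more cells of a type and more RNA per cell cannot be told apart. The coactivator Ciita stood 2.47-fold higher without passing the test. The remaining 3 genes, H2-DMb2, H2-Oa and H2-Ob, had overlapping groups, because 1 control library carried as much of them as any knockout library or more. A call here is a Benjamini-Hochberg adjusted p under 0.05 in edgeR's quasi-likelihood test over all 17392 genes. By that rule 6.5% of all tested genes were higher and 3.84% were lower. The median log2 difference was 1.36 over the 10 genes and -0.0033 over all tested genes.

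The promoters are shown because CIITA acts through the X and Y boxes. Whether these boxes have a part in the levels measured here was not tested. RefSeq promoters (GRCm38.p6, 250 bases before to 50 after the annotated start) were matched for 7 of the 10 genes, in 8 promoters. H2-Ab1, Cd74 and Ciita had no entry. The stretches below run from 120 to 31 bases before the start, 5′ to 3′ on the gene's own strand. Capitals mark the core of the X box (AGNAAC), of the X2 box (TGACG) and the CCAAT core of the Y box (ATTGG, its reverse).
H2-Aa, chr17:34287854-34287943, minus strand: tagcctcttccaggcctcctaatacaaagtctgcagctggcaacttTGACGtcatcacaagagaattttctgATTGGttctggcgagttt
H2-Eb1, chr17:34305747-34305836, plus strand: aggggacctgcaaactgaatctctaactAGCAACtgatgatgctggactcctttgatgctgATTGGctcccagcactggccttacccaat
H2-DMb1, chr17:34153071-34153160, plus strand: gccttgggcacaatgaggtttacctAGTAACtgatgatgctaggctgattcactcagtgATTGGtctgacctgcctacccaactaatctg
H2-DMb2, chr17:34145129-34145218, plus strand: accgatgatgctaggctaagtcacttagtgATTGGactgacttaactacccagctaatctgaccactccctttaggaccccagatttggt
H2-Oa, chr17:34092259-34092348, plus strand: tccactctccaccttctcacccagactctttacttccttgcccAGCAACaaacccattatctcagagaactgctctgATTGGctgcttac
H2-Ob, chr17:34238785-34238874, plus strand: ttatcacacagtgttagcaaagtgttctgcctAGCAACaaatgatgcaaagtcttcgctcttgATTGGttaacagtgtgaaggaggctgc

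The Y box CTGATTGG, searched on both strands, was found in 3 of the 7 genes, H2-Aa, H2-Eb1 and H2-Oa, and in 4.10% of all 32851 promoters of the same length. With fewer fixed letters (TGATTGG) it was found in 6 genes, all but H2-DMa, and in 7.82% of promoters. The bare CCAAT core, which lies within both, was in all 7 genes, in 7 of their 8 promoters, and in 37.4% of all promoters. A gene is counted here if any of its promoters matched, whereas the shares are of promoters. The X box core AGNAACNG was found in H2-Eb1, H2-DMb1 and H2-Oa, there on the other strand 3 bases before the start, and in 17.4% of promoters. Its shorter form AGNAAC was in 5 genes and in 48.1% of promoters. The X2 core TGACG was in H2-Aa alone among these genes, on both strands in overlapping copies, and in 20.8% of promoters. On the gene's own strand, the first base of AGNAAC lay 33 bases before that of ATTGG in H2-Eb1, 34 in H2-DMb1, 34 in H2-Oa and 31 in H2-Ob. A pair of these cores 25 to 45 bases apart, a window chosen after the promoters were seen, occurred in 0.554% of all promoters. The genes that rose and the genes whose groups overlapped thus both include promoters with this pair. A match of letters is a description of the sequence and does not show that a protein binds there.

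**Figure D1:**
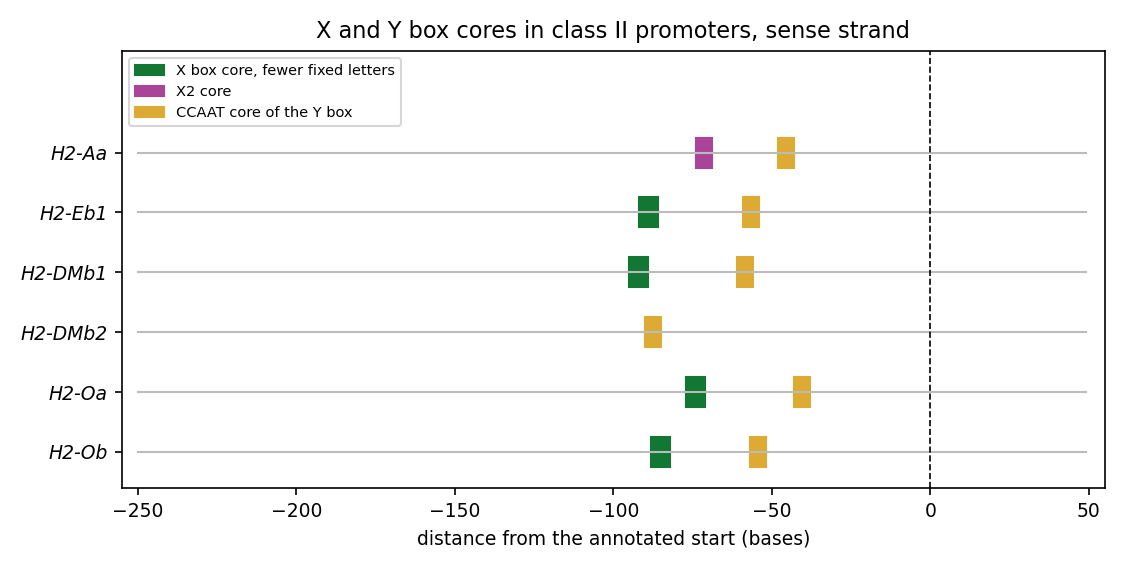
Position of the X, X2 and CCAAT cores on the sense strand of 6 class II promoters, in bases from the annotated start (dashed line); grey lines span the 300-base window. The X and CCAAT cores of H2-Eb1, H2-DMb1, H2-Oa and H2-Ob stand 31 to 34 bases apart, upstream of the start. H2-DMa is not drawn.

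The microRNA removed from the knockout animals has the mature form given here, as listed by RefSeq (GRCm38.p6, chr1:74394324-74394344, plus strand), with its seed, bases 2 to 8, in capitals.
mmu-miR-26b-5p: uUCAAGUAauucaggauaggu
Seed matches were searched in the longest annotated 3′ UTR of each gene in GENCODE release M21. Of the 10 class II genes, 9 held no match to the seed of at least 7 bases, and Ciita held 1, the 7-base form ACTTGAA. Over all 20983 genes with such a UTR, 18.3% held a match. None of the 6 genes that rose carried such a site, a count too small to set apart from the share over all genes. Whether the microRNA acts on any of these genes was not tested.

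Levels are first given as deposited TPM, which the authors had rescaled and which corrects for transcript length, so that genes can be set beside each other. In the knockouts Cd74 stood highest, at 701 ± 214 TPM (SD, n = 3), ahead of H2-Aa at 556 ± 158, H2-Eb1 at 482 ± 134 and H2-Ab1 at 333 ± 99.9 TPM. In the controls the same order held, at 223 ± 86.8 TPM for Cd74, 145 ± 50.9 for H2-Aa, 128 ± 52.4 for H2-Eb1 and 94.3 ± 37.3 for H2-Ab1. Neighbours in that order had overlapping ranges between libraries, yet the order was the same within each of the 6 libraries. The editor chains followed at a distance, H2-DMb1 at 16.8 ± 3.12 and H2-DMa at 14.5 ± 4.43 TPM in controls and at 43.6 ± 14.3 and 34.8 ± 7.21 TPM in knockouts. H2-Ab1 and H2-DMb1 did not overlap in either group. Ciita, at 2.55 ± 1.17 and 5.97 ± 1.69 TPM, was close to H2-DMb2 (4.84 ± 4.98 and 4.98 ± 0.937 TPM) and H2-Ob (5.22 ± 4.61 and 4.22 ± 0.297 TPM), and their order differed between libraries. H2-Oa was lowest in the knockouts, at 2.15 ± 0.659 TPM, and in the controls at 1.24 ± 1.41 TPM.

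The values that follow are CPM, counts scaled to library size with TMM factors, which compare 1 gene between libraries. H2-Aa (ENSMUSG00000036594, minus strand, chr17:34282744-34287823, GRCm38) encodes the alpha chain of the I-A molecule. It stood at 87.9, 116 and 54.8 CPM in control replicates 1, 2 and 3 and at 362, 391 and 221 CPM in knockout replicates 1, 2 and 3. The lowest knockout was above the highest control, and the log2 difference was 1.91 (SE 0.32, edgeR adjusted p = 0.0300). H2-Ab1 (ENSMUSG00000073421, chr17:34257689-34269419) encodes the beta chain that pairs with it. It was at 58.3, 81.0 and 35.9 CPM in the controls and at 231, 251 and 135 CPM in the knockouts. The libraries fell in the same order as for H2-Aa, and the log2 difference was 1.81 (SE 0.35, adjusted p = 0.0328). H2-Eb1 (ENSMUSG00000060586, chr17:34305867-34316674), the beta chain of the I-E molecule, was at 73.4, 107 and 43.5 CPM in the controls and at 312, 340 and 188 CPM in the knockouts. Its log2 difference was 1.91 (SE 0.36, adjusted p = 0.0328), again with no overlap.

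The alpha chain that would pair with the H2-Eb1 product, H2-Ea, was listed at 0 in all 6 libraries. In mice of the b haplotype, such as C57BL/6, this gene has lost its promoter and I-E does not reach the surface. The labels do not name the strain. A further beta chain gene of the locus, H2-Eb2, was near the floor of detection, at 0.284, 1.71 and 0.0571 CPM in the controls and 0.711, 1.50 and 0.360 CPM in the knockouts, with an adjusted p of 0.858. Its highest control was replicate 2, as for all 10 members.

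Cd74 encodes the invariant chain, which fills the groove of new class II pairs and steers them to endosomes, and which also serves at the surface as a receptor for the cytokine MIF. The gene (ENSMUSG00000024610) lies apart from the class II locus, on chromosome 18 from 60803848 to 60812652. It was at 150, 212 and 94.9 CPM in the controls and at 531, 582 and 311 CPM in the knockouts. The groups did not overlap, and the log2 difference was 1.64 (SE 0.35, adjusted p = 0.0381). It rose by less than the chains it chaperones. The ratio of its TPM to the summed TPM of H2-Aa, H2-Ab1 and H2-Eb1 was 0.592, 0.617 and 0.616 in the controls and 0.511, 0.520 and 0.496 in the knockouts. The ratios did not overlap, and they varied far less between libraries of a group (SD 0.0138 and 0.0125) than the levels did. With 3 libraries against 3 an exact two-sided permutation test cannot go below 0.1, which is the p it gave, or 0.15 adjusted over the 12 ratios computed.

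The beta and alpha chains did not move quite in step either. The ratio of H2-Eb1 to H2-Ab1 TPM was 1.35, 1.37 and 1.32 in the controls and 1.44, 1.42 and 1.50 in the knockouts. That of H2-Aa to H2-Ab1 was 1.58, 1.47 and 1.62 against 1.67, 1.65 and 1.71. Both ratios were higher in every knockout than in every control, with an exact permutation p of 0.1, the smallest possible, and 0.15 adjusted. The shifts are small, 0.11 on the log2 scale for each, beside a rise of 1.81 of H2-Ab1 itself.

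**Figure D2:**
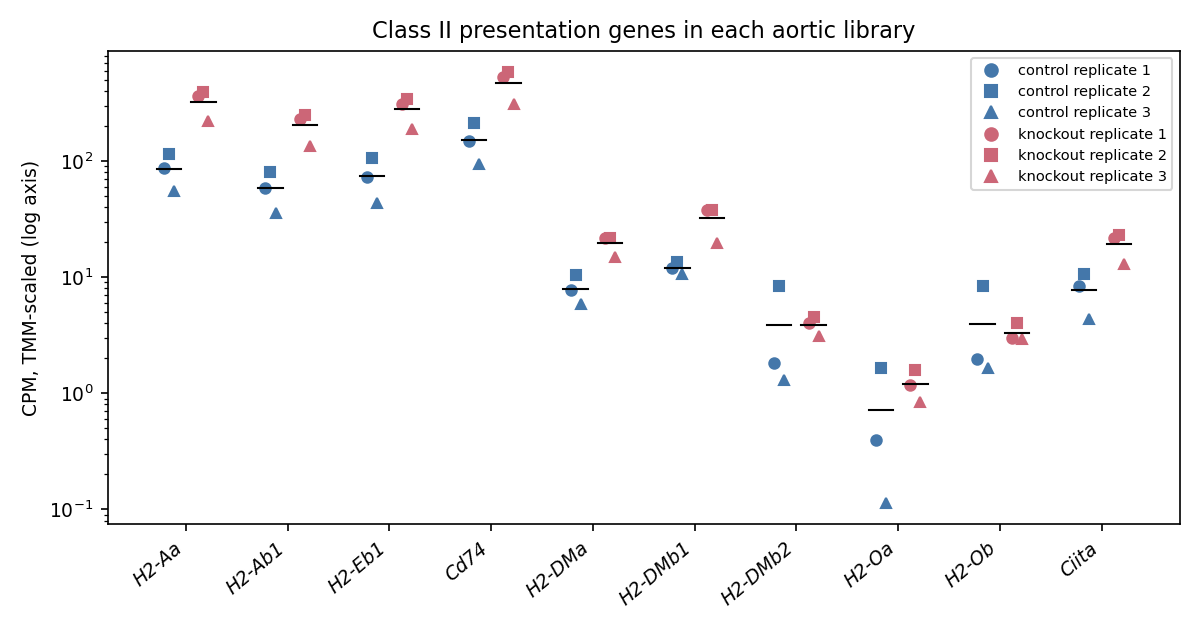
CPM (log axis) of the 10 genes in each library, blue for controls and red for knockouts, with marker shape for the replicate and a black bar for the group mean. For 7 genes all knockouts lie above all controls; for H2-DMb2, H2-Oa and H2-Ob control replicate 2 lies far above the other controls.

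H2-M, the peptide editor, pairs the H2-DMa product with that of H2-DMb1 or H2-DMb2, adjacent beta chain genes that arose by duplication. H2-DMa (ENSMUSG00000037649, chr17:34119541-34139101) was at 7.69, 10.3 and 5.88 CPM in the controls and at 21.8, 21.9 and 14.8 CPM in the knockouts. The groups were apart, with a log2 difference of 1.29 (SE 0.24, adjusted p = 0.0325). H2-DMb1 (ENSMUSG00000079547, chr17:34153072-34160230) was the steadiest of the 10 in the controls, at 11.98, 13.5 and 10.6 CPM, and stood at 38.1, 38.2 and 19.8 CPM in the knockouts. Its log2 difference was 1.41 (SE 0.26, adjusted p = 0.0322).

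H2-DMb2 (ENSMUSG00000037548, chr17:34143307-34151555) did not follow its neighbour. It was at 1.81, 8.43 and 1.31 CPM in the controls and at 4.01, 4.56 and 3.11 CPM in the knockouts. Control replicate 2 exceeded every knockout, while the other controls lay below every knockout. The log2 difference was 0.01 (SE 0.68, adjusted p = 0.991). Reads of such similar genes can be divided between them by the counting tool, so each level carries that uncertainty. With their counts added, the pair had a log2 difference of 1.18 and an adjusted p of 0.0594. The ratio of H2-DMb2 to H2-DMb1 TPM was 0.139, 0.529 and 0.120 in the controls and 0.0998, 0.111 and 0.146 in the knockouts, so that control replicate 2 alone stood apart (exact permutation p = 0.3, adjusted 0.36).

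The genes of H2-O, the inhibitor of H2-M, behaved like H2-DMb2. H2-Oa (ENSMUSG00000024334, chr17:34092340-34095234), the alpha chain, was at 0.397, 1.65 and 0.114 CPM in the controls and at 1.18, 1.59 and 0.833 CPM in the knockouts. Its lowest library, control replicate 3, held 5.99 estimated counts, so this gene is measured less firmly than the others. The log2 difference was 0.74 (SE 0.79, adjusted p = 0.571). H2-Ob (ENSMUSG00000041538, chr17:34238903-34254414), the beta chain, was at 1.98, 8.32 and 1.64 CPM in the controls and at 2.98, 4.06 and 2.94 CPM in the knockouts. Its log2 difference was -0.26 (SE 0.62, adjusted p = 0.811). Both genes were 4.59-fold to 6.47-fold higher in control replicate 2 than in the mean of the other controls, where the 6 genes that rose were 1.19-fold to 1.83-fold higher.

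The same library held B cell transcripts far above the others. Of 12 B cell markers, the B cell transcription factor gene Pax5 was at 1.23, 9.07 and 0.856 CPM in the controls and between 0.468 and 0.816 CPM in the knockouts. The immunoglobulin gene Ighm was at 401 CPM in control replicate 2 and between 24.0 and 31.8 CPM elsewhere. Summed over the 12 markers the level was 579 CPM in control replicate 2 and between 118 and 138 CPM in the other 5 libraries, and no marker was at 0. Ighm makes up most of the sum in that library. In the other libraries most of it is Ebf1, at 74.0 to 92.7 CPM, which did not stand out in control replicate 2 (89.0 CPM, the lowest control). None of the 12 was called in either direction, and their median log2 difference was -1.36. The part of these cells in the levels of H2-DMb2, H2-Oa and H2-Ob was not tested beyond the covariate fit given below.

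Control replicate 2 was the highest control for all 10 genes, so leaving it out raises each log2 difference. Without it all 10 genes had a positive log2 difference. It was 1.31 for H2-DMb2, 2.22 for H2-Oa and 0.87 for H2-Ob, with edgeR adjusted p of 0.0771, 0.0961 and 0.0956. DESeq2, run on the same 5 libraries after the data had been seen, gave 0.0002 for H2-DMb2, 0.0064 for H2-Oa and 0.0118 for H2-Ob. With control replicate 3 left out instead, the edgeR log2 differences of these genes were -0.40, 0.23 and -0.63. With the mean level of the B cell markers as a covariate in all 6 libraries, the log2 differences were 1.27, 2.24 and 0.83, with edgeR adjusted p of 0.0552, 0.0655 and 0.0577. That level mainly sets control replicate 2 apart, so the fit cannot separate B cells from other features of the same library. For the 6 called genes the log2 difference without control replicate 2 lay between 1.50 and 2.25, against 1.29 and 1.91 in all libraries.

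**Figure D3:**
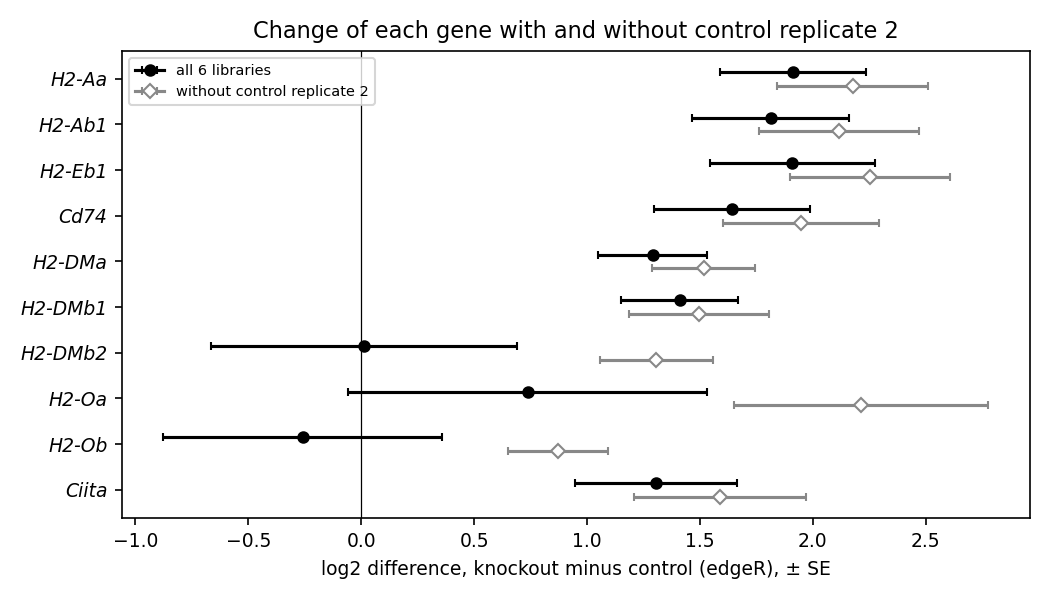
Log2 difference (knockout minus control, edgeR) with its standard error for each gene, in all 6 libraries (black circles) and without control replicate 2 (open diamonds). H2-DMb2, H2-Oa and H2-Ob move from 0.01, 0.74 and -0.26 to 1.31, 2.22 and 0.87, while H2-Eb1 moves from 1.91 to 2.25 and H2-DMb1 from 1.41 to 1.50. Control replicate 2 was the highest control for each gene, so leaving it out raises each difference.

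Relative to H2-M, the H2-Ob chain was lower in the knockouts. The ratio of H2-Ob TPM to the sum of H2-DMb1 and H2-DMb2 was 0.139, 0.345 and 0.164 in the controls and 0.0709, 0.0786 and 0.131 in the knockouts. No knockout reached the lowest control (exact permutation p = 0.1, the smallest possible; 0.15 adjusted), and knockout replicate 3 lay closest. The log2 difference of the ratio was -1.14, and -0.74 without control replicate 2. H2-Oa relative to H2-DMa overlapped between the groups, at 0.0502, 0.147 and 0.0182 in the controls and 0.0537, 0.0735 and 0.0567 in the knockouts (exact permutation p = 0.7, adjusted 0.7). Its log2 difference was 0.24 in all libraries, 1.01 without control replicate 2, where every knockout lay above both controls, and -0.50 without control replicate 3. H2-DMa relative to the summed beta chains was between 0.631 and 0.724 in controls and between 0.662 and 0.852 in knockouts (exact permutation p = 0.5).

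Ciita (ENSMUSG00000022504, chr16:10480059-10528418) encodes the coactivator itself. It was at 8.45, 10.7 and 4.34 CPM in the controls and at 21.6, 23.3 and 13.1 CPM in the knockouts, with no overlap. The log2 difference was 1.31 (SE 0.36), and the edgeR adjusted p of 0.0639 missed the threshold. DESeq2 gave 0.0014. All knockouts lay above all controls for 7 of the 10 genes, the 6 called ones and Ciita, and for 18.9% of all tested genes. The summed TPM of the 3 classical chains was 134, 140 and 174 times that of Ciita in the controls and 240, 223 and 225 times in the knockouts. The chains thus stood higher relative to their coactivator in every knockout (exact permutation p = 0.1, the smallest possible; 0.15 adjusted).

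The libraries of each group kept 1 order throughout. Control replicate 2 was the highest control and control replicate 3 the lowest for all 10 genes, and knockout replicate 2 was the highest and knockout replicate 3 the lowest knockout for all 10 in CPM. In deposited TPM the knockout order differed for H2-DMa, highest in replicate 1 (39.5 against 38.4 TPM in replicate 2), and for H2-Ob, lowest in replicate 1 (4.02 against 4.07 TPM in replicate 3). For the 6 called genes and Ciita, knockout replicate 3 held 0.519 to 0.677 times the mean of the other knockouts. The coefficient of variation of CPM was 35.4% for H2-Aa in controls and 28.1% in knockouts, where the median over all tested genes was 7.30% and 9.87%. It was 103% for H2-DMb2, 114% for H2-Oa and 94.5% for H2-Ob in controls, and 18.8%, 31.7% and 19.2% in knockouts. A spread common to all 10 genes means that they are not 10 separate measurements of a difference between the groups.

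Leaving out a library ended the edgeR calls in 5 of 6 cases, for these genes as for most others. Without control replicate 1, 2 or 3, or knockout replicate 1 or 2, 0 of the 10 genes were called, while over all tested genes 0 to 52 were called higher and 0 to 22 lower, against 1131 and 667 in all libraries. An unadjusted p under 0.05 was found for 7 of the 10 genes in all libraries, for 10 without control replicate 2 and for 7 in each of the other 4 fits. The log2 difference of H2-Aa stayed between 1.67 and 2.18. Without knockout replicate 3, 7 members were called, Ciita included, and 3051 genes in all were higher and 2028 lower. DESeq2 called 7 members higher in all libraries, beside 2086 genes higher and 1357 lower, and 6 to 10 members with a library left out, beside 1172 to 3127 genes higher.

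Most macrophage and dendritic cell markers moved in the same direction. Of 12 macrophage markers 11 were higher and 1, the efferocytosis receptor gene Mertk, was lower. Their summed level was 713 to 862 CPM in the controls and 3479, 3853 and 1500 CPM in knockout replicates 1, 2 and 3. Of 12 dendritic cell markers 7 were higher and 0 lower, with sums of 54.3 to 68.8 CPM in the controls and 172, 204 and 110 CPM in the knockouts. Among these the receptor gene Flt3, which marks dendritic cells, rose from 0.756 ± 0.351 to 2.69 ± 0.781 CPM (adjusted p = 0.0406), and Xcr1, of the cross-presenting subset, rose from 0.539 ± 0.0404 to 1.31 ± 0.335 CPM (adjusted p = 0.0331). Siglech and Zbtb46 were not called, at log2 differences of -0.41 and 0.065. Much of the rise of the dendritic sum was Itgax, which plaque macrophages express too. Itgax was at 11.3, 8.32 and 7.09 CPM in the controls and 92.2, 109 and 32.5 CPM in the knockouts. Of 12 T cell markers 0 were called, with sums of 10.8 to 29.5 CPM in controls and 18.8 to 39.1 CPM in knockouts. No marker of these lists was at 0 in all libraries. Markers of the vessel wall moved as well. Of 6 smooth muscle markers 0 were higher and 3 lower, the contractile actin gene Acta2 going from 13784 ± 955 to 9256 ± 680 CPM (adjusted p = 0.0322). Of 6 fibroblast markers 3 were higher, among them the matrix proteoglycan gene Lum with a log2 difference of 1.77 (adjusted p = 0.0304), and of 6 endothelial markers 2 were higher, with 0 lower in either list.

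Set against single markers, the class II chains moved more than some and less than others. The summed TPM of the 3 chains was 11.7, 15.2 and 9.27 times that of Csf1r, the receptor of the macrophage growth factor, in the controls and 22.1, 21.8 and 20.5 times in the knockouts. Against Itgax, an integrin of dendritic cells and plaque macrophages, the direction was opposite, at 68.7, 136 and 72.0 times in the controls and 36.9, 33.4 and 60.5 times in the knockouts. Neither of these ratios overlapped between the groups (exact permutation p = 0.1 each, the smallest possible; 0.15 adjusted). Against the lysosomal protein gene Cd68 the ratios overlapped, at 10.1, 19.1 and 10.5 in the controls and 7.27, 6.90 and 12.6 in the knockouts (exact permutation p = 0.3, adjusted 0.36). Against the B cell gene Cd79a they were 144, 26.9 and 90.9 in the controls and 1042, 640 and 366 in the knockouts (exact permutation p = 0.1, adjusted 0.15). The part of these cell types in the class II difference was not tested beyond the B cell covariate fit.

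**Figure D4:**
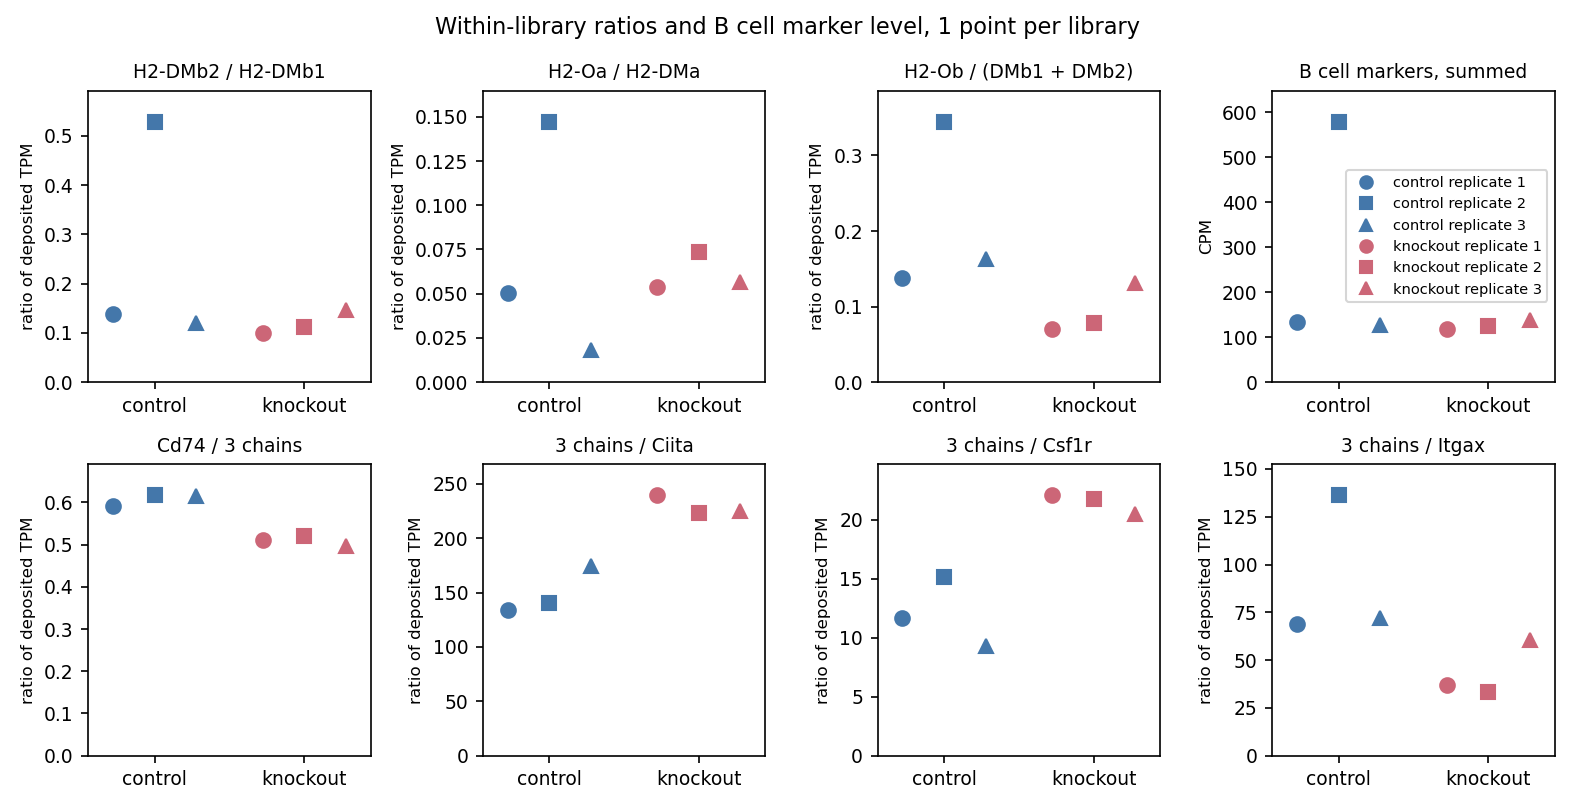
Within-library ratios of deposited TPM (7 panels, linear axes from 0) and the summed CPM of 12 B cell markers (upper right), 1 point per library. Control replicate 2 stands apart in the upper row, at 579 CPM of B cell markers; in the lower row the groups do not overlap, with Cd74 per chain and chains per Itgax lower, and chains per Ciita and per Csf1r higher, in knockouts.

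The level of fat markers also varied between the libraries. The 6 markers, Ucp1 and Adipoq among them, summed to 2082, 1291 and 626 CPM in the controls and to 384, 585 and 1630 CPM in the knockouts. Within the knockouts the library with most fat signal, replicate 3, had the lowest class II levels, while within the controls the library with least, replicate 3, had them. With the fat level as a covariate 0 of the 10 genes were called, beside 152 higher and 140 lower over all tested genes, and the log2 difference was 1.82 for H2-Aa and 1.53 for Cd74. The part of fat in the difference was not tested beyond that fit.

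The rest of the pathway was described from lists of its steps. The X and Y boxes are bound by the RFX proteins, NF-Y and CREB, and none of the 8 genes for them was called in either direction. The lowest p were of Nfya, at 34.1, 31.7 and 36.1 CPM in the controls and 27.8, 29.6 and 28.7 CPM in the knockouts (log2 difference -0.24, adjusted p = 0.0593), and Creb1 (log2 difference -0.13, adjusted p = 0.147). The table lists Nfya under 2 identifiers with identical values. The list's median log2 difference was -0.0342.

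Upstream of Ciita, 4 of 11 tested genes of interferon gamma signalling and of the Ciita promoters rose and 0 fell. Irf1, an interferon-induced transcription factor gene whose product acts on a Ciita promoter, went from 40.6 ± 1.67 to 57.3 ± 2.82 CPM (adjusted p = 0.0151). The receptor chain gene Ifngr1 went from 98.7 ± 0.692 to 130 ± 12.1 CPM (adjusted p = 0.0325). Spi1, the myeloid transcription factor gene, went from 8.08 ± 2.15 to 33.5 ± 15.4 CPM (adjusted p = 0.0338). Ifng itself, made by T and NK cells, was too low to test, at 0 to 0.0960 CPM in the controls and 0 to 0.131 CPM in the knockouts.

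Of 10 genes for endosomal processing, 6 rose and 0 fell, with a median log2 difference of 1.14. Ctss, the protease that makes the last cuts in the invariant chain, was at 82.8, 61.2 and 46.3 CPM in the controls and at 635, 749 and 214 CPM in the knockouts, a log2 difference of 3.07 (SE 0.49, adjusted p = 0.0270). It therefore rose by more than any of the 10 members on the log2 scale, a difference that was not tested. Lgmn, an endopeptidase, rose by 1.42 on the log2 scale, Ctsd by 1.28, Ctsb by 1.27 and Ctsz by 0.98, with adjusted p between 0.0396 and 0.0456. Ifi30, the reductase that opens disulphide bonds of antigen, rose from 34.5, 35.4 and 28.6 CPM in the controls to 73.6, 78.4 and 45.03 CPM in the knockouts (adjusted p = 0.0385). Ctsl, at a log2 difference of 1.29, was not called (adjusted p = 0.0599), and neither were Ctsh, Cst3 or Sppl2a, the enzyme that clears the stub of the invariant chain.

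At the surface, class II is marked for breakdown by the ubiquitin ligase gene Marchf1, which rose from 4.50 ± 1.65 to 12.6 ± 3.77 CPM (adjusted p = 0.0405). It was the 1 called gene of 8 in that list. Cd82, a tetraspanin, was next by p at 35.4 ± 2.63 and 46.5 ± 5.48 CPM (adjusted p = 0.0552). Of 6 costimulatory ligands 3 rose and 0 fell. Cd80 and Cd86, which give T cells their second signal, rose by 1.30 and 1.26 on the log2 scale (adjusted p 0.0417 and 0.0325), and Cd274, the inhibitory ligand PD-L1, by 0.73 (adjusted p = 0.0446). On the side of the T cell, 0 of 9 tested genes were called. Of these Icos had the lowest p, at 0.330 ± 0.154 and 1.13 ± 0.424 CPM (adjusted p = 0.0518), and Cd4, the coreceptor that binds class II, stood at 2.82 ± 1.38 and 7.78 ± 3.93 CPM (adjusted p = 0.113). Some macrophages also express Cd4. Among 5 genes of the MIF and CD74 receptor system, Cxcr4 rose from 3.73 ± 1.32 to 21.3 ± 11.2 CPM (adjusted p = 0.0370), and Mif itself stood at 32.6 ± 1.64 and 39.7 ± 3.53 CPM (adjusted p = 0.0664).

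**Figure D5:**
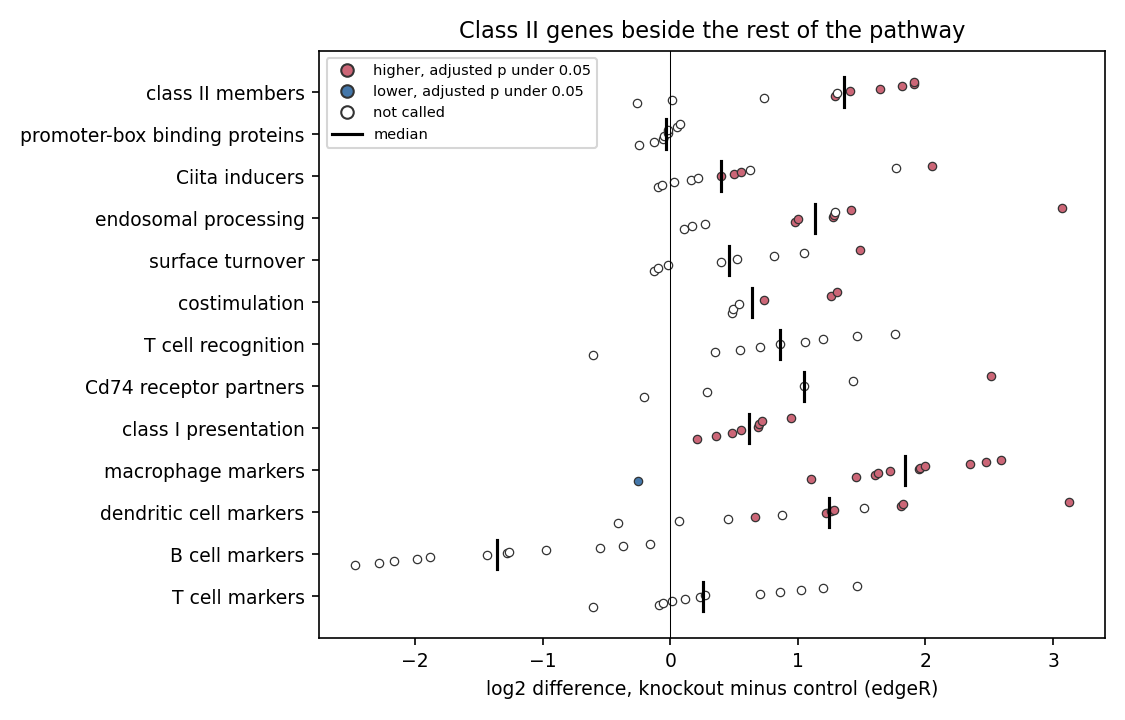
Log2 difference of each tested gene (knockout minus control, edgeR), by list; filled points have an adjusted p under 0.05 (red higher, blue lower) and bars are medians. The class II members have a median of 1.36, the proteins of the promoter boxes -0.0342 and the B cell markers -1.36.

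The genes most like the class II core in pattern were sought among 12773 tested genes whose log2 CPM averaged 1 or more. The members and genes with a predicted, clone or pseudogene-type symbol were left out of that number. The core was the mean log2 CPM of H2-Aa, H2-Ab1, H2-Eb1 and Cd74, and likeness was Pearson's r over the 6 libraries, given as a description. Those 6 values hold the group difference, so a high r is common among genes that differ. The highest were Pafah1b3 (r = 0.9995), Ear2 (0.9986), Pld4 (0.9985), Lilra5 (0.9982), Hfe (0.9978) and Ccnd1 (0.9976), all higher in knockouts by the same call. With each group's mean removed, the highest were Cnr2 (0.9992), Itgal (0.9991), Was (0.9987) and Adamts5 (0.9987). Cnr2, a cannabinoid receptor gene, Itgal, an integrin of leukocytes, and Was, an actin regulator of blood cells, are expressed by immune cells. Of these 4 only Adamts5, a protease of matrix proteoglycans, was called. The other class II members had an r of 0.9984 (H2-DMa), 0.9840 (Ciita), 0.9668 (H2-DMb1), 0.8058 (H2-Oa), 0.5826 (H2-DMb2) and 0.3924 (H2-Ob) with the core.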

How the data were processed

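RNA of 6 aortic libraries, 3 per group, was used. Groups and replicate numbers came from the titles. The tools listed in the submitters' processing notes are kallisto 0.46.2, Trim Galore 0.6.5 and FastQC 0.11.8, the build is GRCm38, and per the labels the mean RNA integrity was 7.0. The authors deposited estimated counts per gene, which are not whole, and TPM values that they rescaled, used here as a signal since the deposited columns sum to 955527 to 1034723. Deposited counts summed to 51634139 to 54817547 per library, which limits precision for genes near 1 CPM. In each library 66.0% to 67.4% of low count values were whole multiples, within 0.02, of a constant between 0.9004 and 1.0685. The sums of deposited counts therefore need not be numbers of reads. Whether the libraries keep strand is not given in the sources used here.

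Counts were rounded, filtered with filterByExpr (minimum count 10), scaled by TMM and tested with edgeR 4.0.16 in R 4.3.3, with Benjamini-Hochberg adjustment over 17392 genes. The biological coefficient of variation was 0.164. The standard error is the log2 difference divided by the root of F. The fit was tested on simulated counts. No pair of libraries of 1 group agreed within sampling noise (mean chi-square per gene 12.3 to 112). On the first principal component, 61.9% of variance, knockout replicate 3 lay between the groups. Within-library ratios of TPM were compared by exact two-sided permutation tests. Members, gene lists and marker lists were chosen with earlier results of these data known. Named genes were the 10 members, the called genes or, where fewer than 2 were called, the 2 of lowest p in each pathway list, and the genes most like the class II core. Values of some listed genes are not reported here. Sequences are from RefSeq and gene models from GENCODE release M21, both on GRCm38. Alternatives were other scaling, filters, DESeq2 1.42.0, limma 3.58.1 (voom, log2(TPM + 1), log2(TPM + 0.1)), a replicate block, covariates and omission of each library. DESeq2 with a library left out and removal of the constant were added after the data were seen.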

Additional observations from a re-analysis of the deposited data

How the results depend on the processing

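The count of 6 higher members held at 6 under median-of-ratios, upper-quartile and library-size scaling, with no or a mean-count filter, with rows of a symbol summed and with the per-library constant removed. It was 7 with DESeq2 and 5 with limma-voom or with H2-DMb1 and H2-DMb2 summed. It was 0 with limma on log2(TPM + 1), where the lowest adjusted p was 0.0502 (7 at an unadjusted p under 0.05), 0 when every gene was kept there, and 1 with log2(TPM + 0.1). Over all genes these 3 fits called 217, 94 and 316 higher and 137, 71 and 181 lower, against 1131 and 667. It was 3 with the B cell covariate, all 10 then having adjusted p between 0.0499 and 0.0684, and 0 with the fat covariate (7 at an unadjusted p under 0.05), which over all genes called 133 and 152 higher and 78 and 140 lower. With a library left out it ranged from 0 to 7 in edgeR, the 7 being without knockout replicate 3, and it was 10 in DESeq2 without control replicate 2. The cause of the lost calls in the other edgeR fits was not tested.

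The 6 called genes and Ciita kept a positive log2 difference under every alternative run. So did H2-Oa, not called in the main fit, at 0.23 to 2.24. H2-Ob, not called, turned positive with limma-voom (0.13), limma on log2(TPM + 0.1) (0.0291), the replicate block (0.10), the B cell covariate (0.83) and DESeq2 without control replicate 2 (0.87), and ranged from -0.63 to 0.87 with a library left out. H2-DMb2 ranged from -0.40 to 1.31 with a library left out in edgeR, and in DESeq2 stood at -0.33, -0.40, -0.0127 and -0.12 without control replicate 1, control replicate 3, knockout replicate 1 and knockout replicate 2. The cause of these changes was not tested.

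With the replicate number as a block edgeR called 7 members, Ciita being the added gene (adjusted p = 0.0143), beside 1295 genes higher and 700 lower in all. Deviations from the group mean of same-numbered libraries correlated over genes at -0.092, 0.23 and 0.076, and those of differently numbered libraries at -0.21 to 0.12. For all class II members, replicate 2 was highest and replicate 3 lowest in CPM in both groups. The block lowered the SE of H2-Aa from 0.32 to 0.081. Whether the numbers pair the libraries cannot be told from these values.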

Other observations

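Class I presentation genes, several of which lie among the class II genes on chromosome 17, were higher too, with the same order of libraries in their summed level and a smaller spread. All 8 of the fixed list were called higher, with a median log2 difference of 0.62. The class I heavy chain gene H2-D1 was at 455, 460 and 438 CPM in the controls and at 752, 817 and 628 CPM in the knockouts (edgeR adjusted p = 0.0240), and its light chain gene B2m at 537, 537 and 521 CPM against 787, 834 and 721 CPM (adjusted p = 0.0186). H2-K1, Tapbp and the peptide transporter genes Tap1 and Tap2 rose by 0.48, 0.36, 0.72 and 0.21 on the log2 scale. The immunoproteasome genes Psmb8 and Psmb9 rose by 0.95 and 0.68. Summed over the list, control replicate 2 was at 1618 CPM beside 1584 and 1508 in the other controls, so the spread among controls was far smaller than for class II, whose 3 chains summed to 220, 304 and 134 CPM. Knockout replicate 3 was at 2130 CPM, beside 2330 and 2510 CPM in the other knockouts, whereas its class II chains stood at 544 CPM beside 905 and 982 CPM.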
